A study of Mus musculus with 7 samples.

Results

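Dendritic cell subsets were followed through 10 marker genes, chosen by name from a table of 23420 gene rows, and all 10 had a row. Flt3, Zbtb46 and Itgax are shared by conventional dendritic cells, and Xcr1 and Batf3 mark the type 1 subset. Cd209a marks type 2 or monocyte-derived cells and Siglech marks plasmacytoid cells, while Fscn1, Ccl17 and Ccl22 belong to mature or migratory cells. The values came from bulk RNA sequencing of mouse heart, labelled whole heart and extracted from flash-frozen ventricle. The 4 control hearts were Ctla4+/+;Pdcd1-/- and the 3 ICI-myocarditis hearts were Ctla4+/-;Pdcd1-/-, all untreated and 3 to 6 weeks old. ICI stands for immune checkpoint inhibitor, a class of drug that blocks the T cell brakes CTLA-4 (gene Ctla4) or PD-1 (gene Pdcd1). Loss of Pdcd1 was thus common to both groups, the groups differed in 1 copy of Ctla4, and the alleles were inherited, so no drug was given. The series asked what distinguishes the inflamed heart in this model from the unaffected one.

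Dendritic cells take up antigen in tissues, carry it to lymph nodes and present it to T cells. Conventional type 1 cells cross-present antigen to CD8 T cells and depend on the transcription factor Batf3. Type 2 cells mainly prime CD4 T cells, plasmacytoid cells make type I interferon, and mature cells switch on chemokines and cytoskeletal genes as they migrate. The normal heart holds small numbers of conventional dendritic cells among a larger population of macrophages. In bulk RNA, fewer cells of a type and less RNA per cell cannot be told apart.

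Libraries held 20931730 to 39037176 reads assigned to genes. Of 15258 genes tested, 2397 (15.7%) passed an adjusted p of 0.05 in limma, which was fitted to log2(normalized count + 1). Control 2 stood apart from the other controls on the first principal component (68.6% of the variance), at -2.25 against 61.2 to 96.7 for controls 1, 3 and 4 and -105 to -58.9 for ICI-myocarditis. Ctla4 was at 63.3 ± 37.4 (SD, n = 4) in controls and 302 ± 63.4 (SD, n = 3) in ICI-myocarditis. Pdcd1 was at 64.8 ± 120 and 1305 ± 195 despite the Pdcd1-/- label, so neither gene checked the genotypes. The defining cardiomyocyte genes, Myh6 and Tnnt2 among them, were abundant in all 7 libraries.

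In ICI-myocarditis, 6 members rose and none fell. They were Itgax, Xcr1, Batf3, Flt3, Ccl22 and Ccl17, with log2 fold changes from 2.79 to 4.95, and in each of them every ICI-myocarditis library lay above every control. Among all tested genes, 11.7% were called higher and 17.3% had all ICI-myocarditis libraries above all controls. Zbtb46, Fscn1, Siglech and Cd209a did not pass the test, and their groups overlapped. The median log2 fold change of the 10 members was 3.05, against -0.02 over all genes tested. Ccl17 reached 10 normalized counts in no control, Ccl22 in 1 control and Flt3 in 2, so these genes entered the test through the ICI-myocarditis libraries.

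**Figure D1:**
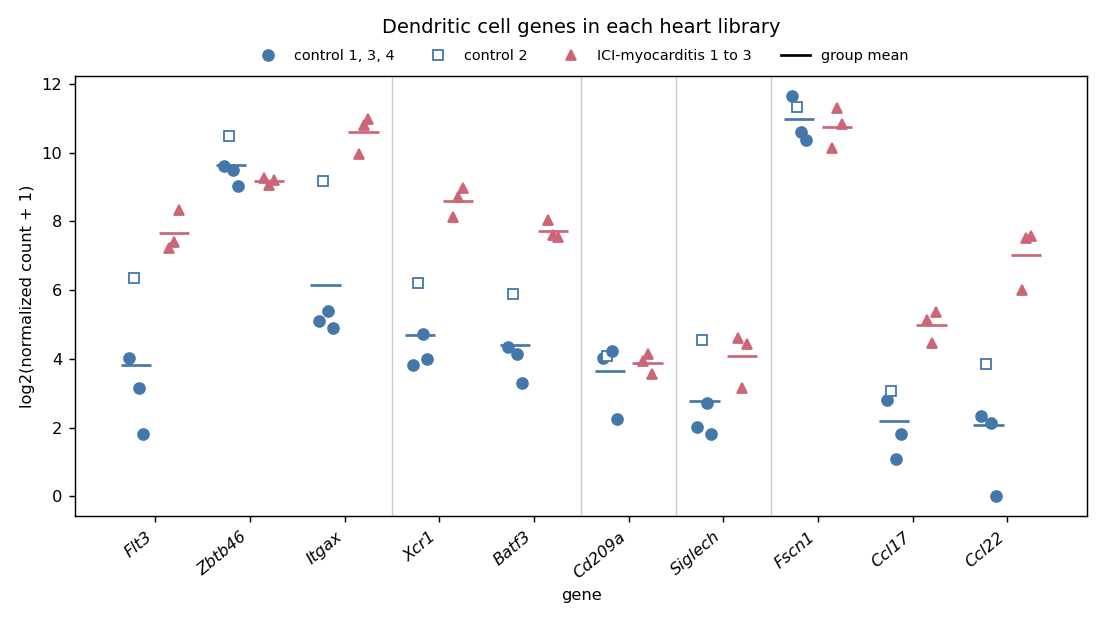
Level of each of the 10 dendritic cell genes in each library, as log2(normalized count + 1), with lines at group means and grey lines between the subsets. In the 6 genes that rose, the 3 ICI-myocarditis libraries sit above all 4 controls, and control 2 (open square) is the highest control.

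The receptor tyrosine kinase FLT3 receives the growth signal on which dendritic cell development depends. Flt3 (chr5:147330741-147400489, all positions from RefSeq on GRCm38) stood at 15.1, 81.4, 7.82 and 2.50 normalized counts in controls 1 to 4 and at 147, 167 and 323 in ICI-myocarditis 1 to 3. Control 2 was thus 9.60 times the mean of the other controls, and the lowest ICI-myocarditis library was 1.81 times control 2. The log2 fold change was 3.82 (SE 0.909, limma adjusted p = 0.0223). The call was lost under edgeR on recovered reads (log2 fold change 2.95, adjusted p = 0.0584). It was also lost in limma without control 1, control 3, ICI-myocarditis 2 or ICI-myocarditis 3 (limma adjusted p = 0.0589, 0.0696, 0.0568 and 0.0951).

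Itgax encodes CD11c, an integrin chain used to sort dendritic cells that is also made by activated macrophages. Itgax (chr7:128129526-128150657) was measured at 33.3, 576, 41.3 and 28.8 normalized counts in controls and at 999, 1781 and 2028 in ICI-myocarditis. The 3 low controls were close together, while control 2 was 16.7 times their mean. The rise in log2 terms was 4.44 (SE 0.923), with a limma adjusted p = 0.0127. It missed the threshold under edgeR (log2 fold change 3.19, adjusted p = 0.0716) and in limma without ICI-myocarditis 3 (adjusted p = 0.0542). Without control 2 its log2 fold change was 5.45 (limma adjusted p = 1.24e-05).

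Zbtb46 encodes a transcription factor that separates conventional dendritic cells from macrophages, and it is also expressed by endothelial cells. Zbtb46 (chr2:181371009-181493262) was at 780, 1432, 722 and 517 normalized counts in controls and 612, 536 and 591 in ICI-myocarditis. The ICI-myocarditis libraries fell inside the control range and close to one another. Its fold change on the log2 scale was -0.47 with a 95% interval from -1.18 to 0.23 (limma adjusted p = 0.350). Of 9 endothelial markers, 4 fell and 5 did not pass, where 4.00% of all tested genes were called lower. Their summed level was 33542 to 85828 normalized counts in controls and 25176 to 31874 in ICI-myocarditis. Kdr fell by 1.65, Erg by 1.24 and Emcn by 1.16 on the log2 scale (limma adjusted p = 0.0301, 0.0066 and 0.0095). The Kdr call held in 9 of 15 alternatives and that of Emcn in 14. The part of endothelial RNA in the Zbtb46 level was not tested.

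Of the type 1 genes, Xcr1 encodes the receptor for XCL1, a chemokine of activated CD8 T cells and NK cells. Xcr1 (chr9:123852315-123862029) was at 13.1, 72.8, 25.7 and 15.0 normalized counts in controls and at 276, 414 and 501 in ICI-myocarditis. Every ICI-myocarditis library exceeded the highest control at least 3.80 times. The log2 fold change was 3.90 (SE 0.556, limma adjusted p = 0.00392), and Xcr1 passed in all 15 alternatives (largest adjusted p 0.0199).

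Batf3, the transcription factor required for type 1 cells, is also induced in activated T cells. Batf3 (chr1:191098414-191108943) was found at 19.2, 58.0, 16.7 and 8.76 normalized counts in controls and at 261, 193 and 184 in ICI-myocarditis. Its 3 ICI-myocarditis libraries spanned only 1.42-fold. The log2 fold change of Batf3 was 3.31 (SE 0.552, limma adjusted p = 0.00597). Each of the 15 alternatives called it (largest adjusted p 0.0253). The 8 T cell markers that had a row all rose, where 11.7% of all tested genes were called higher. Their summed level was 138 to 1718 normalized counts in controls and 7456 to 11498 in ICI-myocarditis. Control 2 alone held the 1718, and the other controls reached at most 208. Cd3g rose by 5.20, Cd3d by 5.17 and Cd4 by 2.89 (limma adjusted p = 0.0040, 0.0062 and 0.0032). How much of the Batf3 signal came from T cells was not tested.

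Cd209a encodes a C-type lectin of the DC-SIGN family found on type 2 and monocyte-derived dendritic cells. Cd209a (chr8:3743395-3748984) stood at 15.1, 16.0, 17.9 and 3.75 normalized counts in controls and 14.3, 16.7 and 10.7 in ICI-myocarditis, which is 3 to 23 recovered reads per library. The groups overlapped throughout. Its estimate on the log2 scale was 0.23 with a 95% interval from -1.05 to 1.51 (limma adjusted p = 0.830), so changes of 2-fold up or down lay inside the interval at this depth. Its sign turned without control 4 (-0.24).

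Siglech encodes a surface lectin of mouse plasmacytoid dendritic cells. Siglech (chr7:55768154-55779448) was at 3.02, 22.2, 5.58 and 2.50 normalized counts in controls and 23.5, 7.97 and 20.6 in ICI-myocarditis. Control 2 lay among the ICI-myocarditis libraries, and ICI-myocarditis 2 lay near the low controls. For Siglech the log2 fold change was 1.30 (95% interval -0.35 to 2.96, limma adjusted p = 0.271). Siglech passed the filter on low values through ICI-myocarditis 1, ICI-myocarditis 3 and control 2. It was therefore not tested when any of these libraries was left out.

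Among the genes of mature cells, Ccl22 and Ccl17 encode chemokines that both bind CCR4, a receptor of regulatory and type 2 helper T cells. Ccl22 was at 4.03, 13.6, 3.35 and 0 normalized counts in controls and at 63.4, 180 and 190 in ICI-myocarditis. Its log2 fold change was 4.95 (SE 0.839, limma adjusted p = 0.00631), which ranked 72 among increases in the 15258 tested genes. ICI-myocarditis 1 was 3.00 times lower than ICI-myocarditis 3, yet 4.67 times the highest control. Ccl22 passed in all 15 alternatives (largest adjusted p 0.0340).

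Ccl17 was lower, at 6.05, 7.40, 1.12 and 2.50 normalized counts in controls and 33.8, 21.0 and 40.5 in ICI-myocarditis. Ccl17 rose by 2.79 (SE 0.593, limma adjusted p = 0.0139), and each of the 11 alternatives that tested it called it. A fold change from so few reads, 1 to 6 per control library, is understated by the added count of 1.

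Fscn1 encodes fascin, an actin-bundling protein of the dendrites of mature cells that many non-immune cells also express. Fscn1 (chr5:142960355-142973189) was at 3170, 2547, 1552 and 1325 normalized counts in controls and 1113, 2521 and 1829 in ICI-myocarditis. The lowest of all 7 libraries was ICI-myocarditis 1 and the highest was control 1. Fscn1 had a log2 fold change of -0.23 (95% interval -1.05 to 0.60, limma adjusted p = 0.732).

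In the authors' deposited table, the adjusted p of the same 6 genes was below 0.05 and that of the other 4 was not, where 3414 of 16882 genes with an adjusted p (20.2%) were below 0.05. Itgax had the largest adjusted p of the 6 in the authors' deposited table, at 0.0366.

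**Figure D2:**
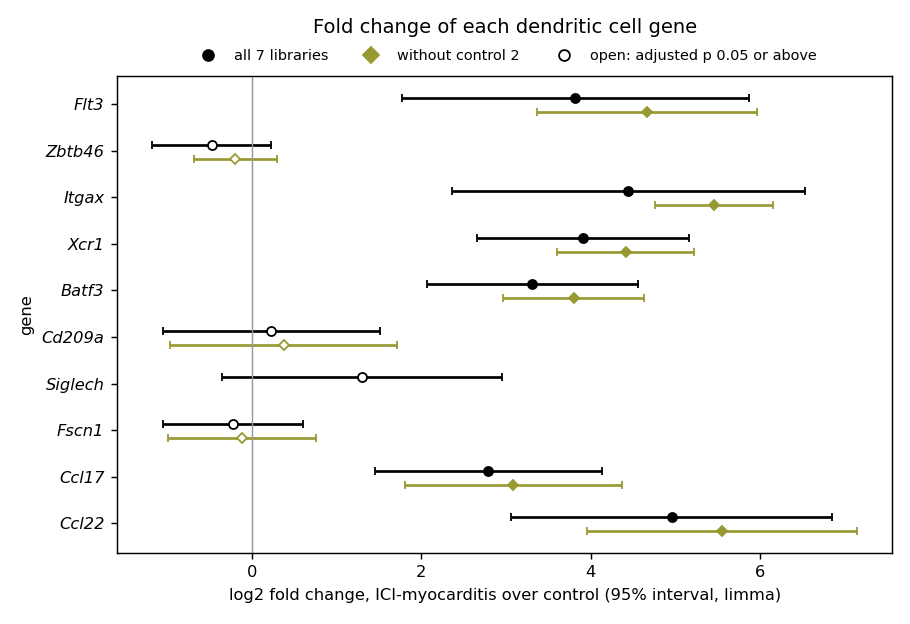
Log2 fold change of each gene with its 95% interval from limma, for all 7 libraries (circles) and without control 2 (diamonds), with open symbols at an adjusted p of 0.05 or above. Without control 2 the 6 called genes had larger fold changes, the interval of Itgax narrowed, and Siglech was not tested.

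Levels were compared between genes per kilobase of exon (union of GENCODE M21 exons, which may differ from the annotation the authors counted on). In ICI-myocarditis the order ran from Fscn1 (605 ± 234 normalized counts per kb, SD, n = 3) and Itgax (334 ± 112) to Batf3 (133 ± 26.2) and Xcr1 (89.2 ± 25.5). Zbtb46 (68.1 ± 4.63), Ccl22 (62.2 ± 30.3), Ccl17 (61.8 ± 19.2) and Flt3 (34.4 ± 15.6) followed. Cd209a (8.78 ± 1.90) and Siglech (5.14 ± 2.45) were lowest. Neighbours in this order had overlapping ranges except Itgax and Batf3, Batf3 and Xcr1, and Flt3 and Cd209a, which were apart. In controls Fscn1 (713 ± 287, SD, n = 4) and Zbtb46 (101 ± 46.5) led the order. The other 8 genes had control means of 2.25 (Ccl22) to 35.4 (Itgax) per kb, with ranges that overlapped between neighbours.

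Each member was then set against Ptprc, which encodes the common leukocyte antigen CD45, a step chosen after the values had been seen. Ptprc itself rose by 3.14 on the log2 scale (limma adjusted p = 0.00728), from 1246 ± 1123 to 8461 ± 1849 normalized counts. Relative to Ptprc, each ICI-myocarditis library exceeded every control for Xcr1, by 0.76 in mean log2 ratio. Zbtb46, Fscn1, Cd209a and Siglech lay below every control in each of them, with differences of -3.61, -3.37, -2.91 and -1.83. These 5 differences had the smallest p that 4 against 3 libraries allow (exact two-sided permutation p = 0.0286). None passed adjustment over the 10 genes (exact permutation test, adjusted p = 0.0571). Passing would have needed most of the 10 genes to reach this smallest p, so the adjusted values decide little. On their own, Zbtb46, Fscn1, Cd209a and Siglech had log2 fold changes of -0.47, -0.23, 0.23 and 1.30, so the Ptprc rise enters each difference.

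Flt3, Itgax, Batf3, Ccl17 and Ccl22 overlapped between groups once set against Ptprc. Their differences were 0.68, 1.30, 0.17, -0.35 and 1.81 (exact permutation test, adjusted p = 0.5, 0.204, 0.714, 0.714 and 0.143). Control 2, which stood high for Flt3 and Itgax, had a Ptprc level of 2874 normalized counts against 483 to 1108 in the other controls. For Xcr1 the 4 controls lay within -5.38 to -5.02 of Ptprc, so control 2 did not stand apart on that ratio.

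**Figure D3:**
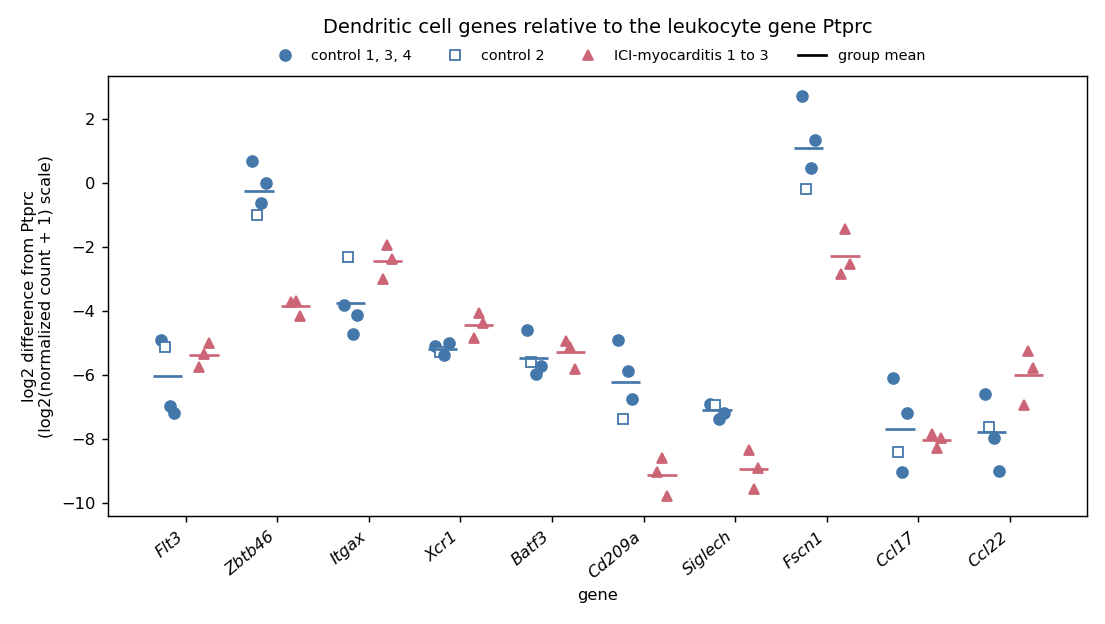
Difference between each gene and Ptprc in each library, on the log2(normalized count + 1) scale, with lines at group means. The ICI-myocarditis points lie above every control for Xcr1 and below every control for Zbtb46, Cd209a, Siglech and Fscn1, and the other 5 genes overlap.

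A set of 6 ratios between genes asked whether subsets changed by unequal amounts. The log2 ratio of Xcr1 to Cd209a was 1.04 ± 1.08 (SD, n = 4) in controls and 4.72 ± 0.64 (SD, n = 3) in ICI-myocarditis. That of Siglech to Flt3 averaged -1.06 in controls and -3.58 in ICI-myocarditis. Both ratios were fully apart between groups, with a difference of 3.67 and -2.51 (exact two-sided permutation p = 0.0286, adjusted over 6 ratios 0.0857). Neither therefore passed the adjustment, which would have needed most of the 6 ratios to reach this smallest p.

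The remaining ratios overlapped between groups. Against the macrophage growth factor receptor gene Csf1r, Flt3 was higher by 2.48, with ICI-myocarditis at -5.30 to -5.07 and control 2 at -5.12 (exact permutation test, adjusted p = 0.171). Itgax against the macrophage gene Adgre1, read from the row with its older symbol Emr1, was higher by 2.16, and control 2 had the highest ratio of all 7 libraries (exact permutation test, adjusted p = 0.171). The ratio of Ccl22 to Ccl17 differed by 2.16 (adjusted 0.171, exact permutation test) and that of Zbtb46 to the endothelial gene Pecam1 by 0.26 (adjusted 0.257, exact permutation test). Of 14 macrophage and monocyte markers, 12 rose and none fell, where 11.7% of all tested genes were called higher and 4.00% lower. The summed levels of these markers were 17194 to 23506 normalized counts in controls and 64839.9 to 98287 in ICI-myocarditis. Among them C1qb rose by 2.74, C1qa by 2.55 and Adgre1 by 2.28 (limma adjusted p = 0.0025 each). The part of macrophages in the Itgax level was not tested.

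Ccl22 (chr8:94745684-94751388) and Ccl17 (chr8:94809380-94812038, GRCm38) are neighbours, 57991 bases apart. RefSeq places 3 genes between them, of which 1, Cx3cl1, had a row. Cx3cl1 encodes fractalkine, the ligand of a receptor on monocytes, and was chosen for its position. It was at 273, 337, 245 and 256 normalized counts in controls and 606, 1115 and 2267 in ICI-myocarditis, and its log2 fold change of 2.06 (SE 0.385) had a limma adjusted p = 0.00871. All 3 measured genes of this stretch were thus higher in ICI-myocarditis, but Ccl22 and Ccl17 are members reported above, so only Cx3cl1 was added here. Among all tested genes, 11.7% were called higher.

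The sequence upstream of a gene's start is shown for 4 members that rose, the 2 neighbouring chemokine genes and Itgax and Xcr1, from RefSeq (GRCm38.p6), 5′ to 3′ on the gene's strand and cut short where an annotated exon begins. The Ccl17 window lies inside that gene's RefSeq span, before the start of a shorter transcript. Windows of 250 bases were found for all 10 members and searched on both strands for 5 motifs, and matches are in capitals.
Itgax, chr7:128129300-128129525, plus strand: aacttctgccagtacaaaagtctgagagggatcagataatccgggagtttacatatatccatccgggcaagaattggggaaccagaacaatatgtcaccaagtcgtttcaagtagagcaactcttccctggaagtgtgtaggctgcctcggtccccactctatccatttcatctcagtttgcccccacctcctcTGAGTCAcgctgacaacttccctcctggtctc
Xcr1, chr9:123862030-123862279, minus strand: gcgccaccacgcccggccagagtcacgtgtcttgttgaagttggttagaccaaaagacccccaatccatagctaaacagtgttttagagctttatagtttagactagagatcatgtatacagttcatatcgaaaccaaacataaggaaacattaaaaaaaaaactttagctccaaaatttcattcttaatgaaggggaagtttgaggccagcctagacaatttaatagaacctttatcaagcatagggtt
Ccl22, chr8:94745434-94745589, plus strand: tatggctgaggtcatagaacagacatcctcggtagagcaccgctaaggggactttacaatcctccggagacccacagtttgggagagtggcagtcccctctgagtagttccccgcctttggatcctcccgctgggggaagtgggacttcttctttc
Ccl17, chr8:94810203-94810452, plus strand: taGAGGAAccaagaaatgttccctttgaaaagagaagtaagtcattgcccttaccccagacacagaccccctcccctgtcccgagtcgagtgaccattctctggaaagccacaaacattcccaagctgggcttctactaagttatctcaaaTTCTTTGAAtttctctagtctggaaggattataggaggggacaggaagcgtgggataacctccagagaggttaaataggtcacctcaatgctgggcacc
The Itgax window held an AP-1 site (TGANTCA, in 6.75% of 32851 windows of the same length), the family of sites that Batf3 binds with Jun partners. A window of Zbtb46, which did not rise, held one too, but this window lies well inside the gene's RefSeq span, before the start of a shorter transcript. A gamma-interferon activated site (TTCNNNGAA, in 7.02% of windows) was matched in Ccl17, Batf3 and Siglech, the last of which did not pass the test. The PU.1 core (GAGGAA, in 23.3%) was matched in Ccl17 and Batf3. For Batf3, 0 bases of the window lay before an annotated exon, so its matches lie outside the sequence kept by that cut. No member window held the interferon-stimulated response element core (in 2.98%) or the NF-kappaB site (in 1.41%). No matches of different motifs overlapped in these windows, and Xcr1, Ccl22, Flt3, Cd209a and Fscn1 held none of the 5.

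Other genes of each subset were read from lists. Of 52 such genes in 4 lists, 46 were tested, 29 rose, 1 fell and 16 did not pass, where 11.7% of all tested genes were called higher and 4.00% lower. Gcsam, Il12b and Apol7c, which rose, reached 10 normalized counts in 1 control each, so they entered the test through the ICI-myocarditis libraries. Of the 12 type 1 genes, 9 rose and 3 did not pass, with a median log2 fold change of 2.59. Irf8, the factor that acts with Batf3 in type 1 development, was at 510 ± 425 (SD, n = 4) and 3547 ± 1168 (SD, n = 3) normalized counts, and rose by 3.04 in log2 terms (limma adjusted p = 0.0050). Itgae, which encodes CD103, rose by 3.82 and Cadm1, an adhesion molecule of type 1 cells, by 3.21 (limma adjusted p = 0.0050 and 0.0033). The lysosomal amidase gene Naaa rose by 2.69 (limma adjusted p = 0.0025). Clec9a, the type 1 receptor for dead cells, was at 335, 614, 288 and 145 in controls and 536, 614 and 840 in ICI-myocarditis, and did not pass (log2 fold change 1.09, limma adjusted p = 0.118). Its control 2 value was within the ICI-myocarditis range. Snx22 (log2 fold change 0.56) and Clnk (2.47), named after their values were seen, did not pass either (limma adjusted p = 0.494 and 0.117). T cell markers and most macrophage markers also rose, and the part of those cells in the type 1 list was not tested.

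Of 10 type 2 and monocyte-derived genes, 6 rose, 1 fell, 1 did not pass and 2 were too low to test, with a median of 1.99. Ltb, which encodes lymphotoxin beta, rose by 4.24, Cd7 by 3.92, Epcam by 3.20 and Sirpa by 1.92 (limma adjusted p = 0.0036, 0.0090, 0.0087 and 0.0039). Ltb and Cd7 are also lymphocyte genes and Sirpa is a macrophage gene. Epcam reached 10 normalized counts in no control and Cd7 in 1, so both entered the test through the ICI-myocarditis libraries. Irf4, a factor of type 2 cells and of activated lymphocytes, rose by 2.07 (limma adjusted p = 0.0283), a call kept in 11 of 15 alternatives. The gene that fell was Mgl2, a C-type lectin gene of type 2 cells and of resident macrophages, named here after its value was seen. It was at 303, 381, 504 and 428 normalized counts in controls and 43.0, 230 and 50.4 in ICI-myocarditis. The log2 fold change was -2.31 (limma adjusted p = 0.0187), called in 11 of 15 alternatives. Calls in this list dropped from 7 to 3 without ICI-myocarditis 1 or 3 and to 4 without ICI-myocarditis 2.

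Of 13 plasmacytoid genes, 6 rose, 5 did not pass and 2 were too low to test, with a median of 1.52. Those that rose included Tlr9 (3.27), the sensor of unmethylated DNA, Runx2 (3.24), Pacsin1 (2.95) and Bst2 (1.52), with limma adjusted p = 0.0038, 0.0066, 0.0047 and 0.0058. Those that did not pass, given after their values were seen, had log2 fold changes of -0.99 (Cox6a2), -0.78 (Tcf4), 0.07 (Smim5), 0.39 (Ccr9) and 0.89 (Spib). Tcf4, the defining transcription factor of plasmacytoid cells, was at 5718 to 11654 normalized counts in controls and 4301 to 6009 in ICI-myocarditis. Cox6a2 was at 10906 to 38435 in controls and 8018 to 14523 in ICI-myocarditis. Siglech, by contrast, was at 2.50 to 22.2 and 7.97 to 23.5. The part of other heart cells in the Tcf4 and Cox6a2 levels was not tested. Bst2 is an interferon-induced gene in many cells, and Tlr9 is also expressed by B cells and macrophages. Of 6 B cell markers, 2 rose and none fell, where 11.7% of all tested genes were called higher and 4.00% lower. The summed levels of these markers were 65.1 to 150 normalized counts in controls and 265 to 549 in ICI-myocarditis. The part of these other cells in the plasmacytoid list was not tested.

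Of 17 mature or migratory genes, 8 rose, 7 did not pass and 2 were too low to test, with a median of 1.03. Ccr7, the receptor that guides mature cells to lymph nodes, was at 11.1, 40.7, 17.9 and 2.50 normalized counts in controls and at 132, 117 and 134 in ICI-myocarditis. Its 3 ICI-myocarditis values were close together and above every control (log2 fold change 3.25, limma adjusted p = 0.0165), and it passed in 11 of 15 alternatives. Samsn1 rose by 3.26, Cd40 by 2.26, Cd86 by 2.10 and Cd80 by 1.98 (limma adjusted p = 0.0042, 0.0100, 0.0056 and 0.0090). Among those that did not pass, Cd200 (log2 fold change -0.61) and Nudt17 (-0.67), named after their values were seen, had every ICI-myocarditis library below every control, as did 11.3% of all tested genes. Their limma adjusted p was 0.0910 and 0.197. Without ICI-myocarditis 2 the calls in this list numbered 5. Of 7 lymph node markers, 1 rose, 3 did not pass and 3 were too low to test, where 11.7% of all tested genes were called higher. Their summed levels were 63.8 to 225 normalized counts in controls and 128 to 219 in ICI-myocarditis. Glycam1 and Ccl21a were at 0 in all 7 libraries and Madcam1 reached 2.90, while Cr2 was at 8.76 to 146, Chst4 at 14.5 to 77.0 and Fcer2a at 23.8 to 61.7 over the 7 libraries. The one that rose was Cxcl13, a B cell chemokine gene, at 0 to 3.75 in controls and 12.3, 44.2 and 112 in ICI-myocarditis (limma adjusted p = 0.0104). Cxcl13 thus entered the test through the ICI-myocarditis libraries. These markers were named after their values were seen, and the part of lymphoid tissue in the mature genes was not tested. Of 6 thymus markers, also named after their values were seen, Foxn1 was at 0 in all 7 libraries. Ccl25, the only one tested, was at 36.3 to 67.8 normalized counts over the 7 libraries and did not pass. Rag2 was above 0 in all 7, while Rag1, Dntt and Ptcra were at 0 in most libraries. The part of thymus tissue was not tested.

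**Figure D4:**
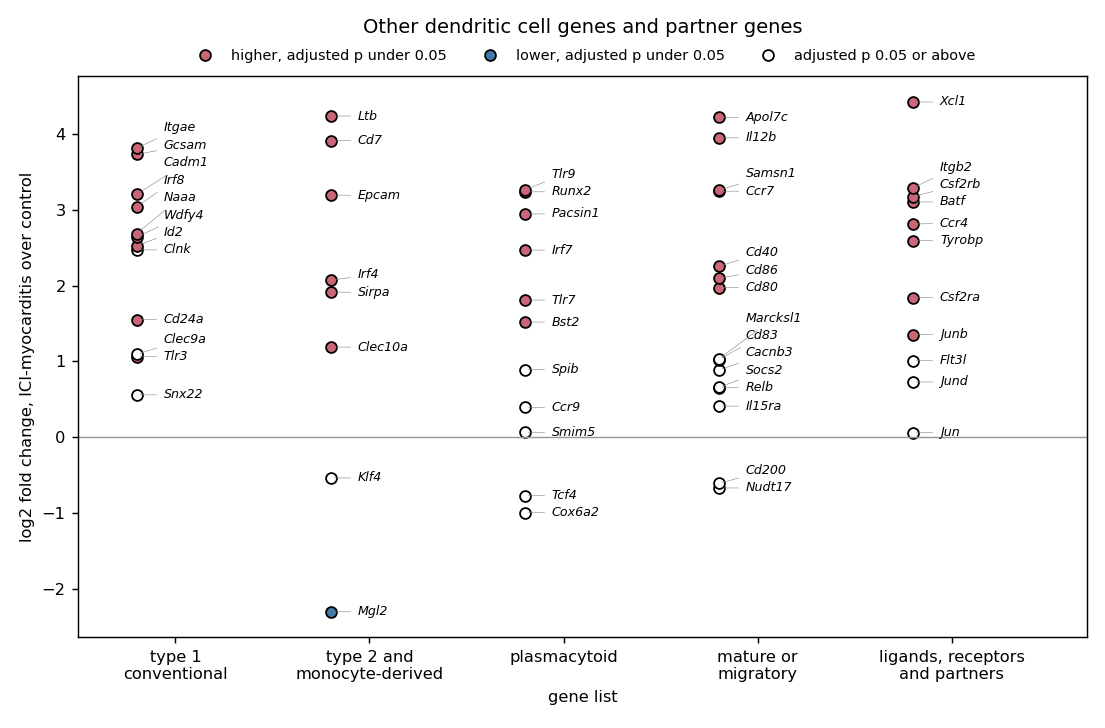
Log2 fold change of each tested gene in 4 lists of other dendritic cell genes and in the list of ligands, receptors and partners, filled where the limma adjusted p was under 0.05. The type 1 list lies wholly above 0, and Mgl2 at -2.31 is the only called decrease in these lists.

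Ligands, receptors and partners of the members formed the last list, in which 8 of 14 rose, 3 did not pass and 3 were too low to test. The share called higher over all tested genes was 11.7%. Xcl1, which encodes the ligand of XCR1, was at 3.02, 34.5, 5.58 and 0 normalized counts in controls and 137, 105 and 115 in ICI-myocarditis. Its log2 fold change was 4.43 (limma adjusted p = 0.0172), called in 11 of 15 alternatives. Ccr4, the receptor of CCL17 and CCL22, was at 0 to 2.23 in controls and 13.3, 12.3 and 17.6 in ICI-myocarditis. Ccr4 rose by 2.82 (limma adjusted p = 0.0131). Ccr4 reached 10 normalized counts in no control and Xcl1 in 1, so both entered the test through the ICI-myocarditis libraries.

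Flt3l, the growth factor that FLT3 binds, was at 147, 290, 149 and 103 normalized counts in controls and 332, 274 and 371 in ICI-myocarditis. Control 2 overlapped with ICI-myocarditis 2, and Flt3l did not pass (log2 fold change 1.01, limma adjusted p = 0.0774). Csf2rb, a receptor chain for GM-CSF, rose by 3.18, and the Batf3-related factor gene Batf by 3.11 (limma adjusted p = 0.0039 and 0.0078). Itgb2, the integrin chain that pairs with CD11c, rose by 3.29 and Tyrobp, the adaptor that pairs with Siglec-H, by 2.60 (limma adjusted p = 0.0059 and 0.0025). Without ICI-myocarditis 3 the calls in this list numbered 4.

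For 5 members the tested genes with the most similar profile over the 7 libraries were found, by the root mean square difference of log2 values after each gene's mean was subtracted. Xcr1 was closest to H2-Ab1 (0.14), H2-Eb1 (0.16) and Il21r (0.18), where the median over all genes was 2.10. H2-Ab1 and H2-Eb1 encode chains of MHC class II, with which antigen is presented to CD4 T cells. H2-Ab1 stayed among the nearest 3 under all 9 alternatives and H2-Eb1 under 8. Flt3 was nearest to Cxcr3 (0.31), Ildr1 (0.35) and 4930431P03Rik (0.37), and Ccl22 to Tnc (0.46), Icos (0.49) and Mmp25 (0.51). Siglech was closest to Stag3 (0.18), which held in all 9 alternatives, then to Phf11c (0.31) and Sidt1 (0.34). Cd209a was closest to Chd5 (0.21), Snx22 (0.21) and Tnfsf13 (0.21), with a median of 0.79 over all genes. Genes other than H2-Ab1, H2-Eb1 and Stag3 stayed among the nearest 3 in at most 5 of 9 alternatives.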

How the data were processed

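The deposited table holds a normalized signal per gene and library from the authors, which behaves as reads per gene scaled by a size factor. The same table holds, per the file headers, the authors' log2 fold change, a test statistic (a score) and p-values with header names as DESeq2 writes them. STAR 2.7.3 and the builds GRCm38 and mm10 are named, per the submitters' processing notes. Neither the counting program, nor its gene models, nor strandedness is named (not given in the sources used here), so reads of overlapping or antisense genes cannot be told apart.

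After division by the step between its lowest values, 100% of values in each column were whole (within 0.1), so reads were recovered. For control 1 the step was 1.01, a weaker sign. A gene was tested where 3 or more libraries reached 10 normalized counts. limma 3.58.1 under R 4.3.3 was applied to log2(normalized count + 1) with a trend and robust variance and Benjamini-Hochberg adjustment over all 15258 genes. A larger added count shrank the fold changes of low genes, for Flt3 from 3.90 with 0.5 to 3.34 with 5 on the log2 scale. Yet the limma values were not always the lower ones. DESeq2 on recovered reads gave 2.99 for Flt3 against 3.82 in limma, and 2.89 against 2.79 for Ccl17. Ratios were tested by exact permutation of the 7 libraries. The alternatives were edgeR 4.0.16 and DESeq2 1.42.0 on recovered reads, pseudocounts of 0.5 and 5, other filters, scaling by library size, a replicate block and each library left out. All 3 tools were tested on simulated data. DESeq2 made more wrong calls there and served as an alternative only.

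The members and lists were chosen with earlier results of these data known. Context genes named were up to 4 per list with the lowest p-value plus 7 listed by name, and 3 for macrophage, T cell and endothelial markers. Of the T cell list, Trac was not matched to a row. The table holds 27 rows with dates in place of gene names.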

Additional observations from a re-analysis of the deposited data

Results flagged for a closer look

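Of 53 results examined in the 4 controls, 8 had 1 library whose gap to the next as a share of the group's range, exceeded Dixon's 95% critical value. Chance flags about 1 in 20 groups, here 2.7, and the genes are not independent of one another. Control 2 was the library on the high side in 7 of the 8. The gap was 0.881 of the range for Itgax, 0.909 for the log2 ratio of Itgax to Adgre1, 0.866 for Itgae and 0.868 for Tlr9. It was 0.924 for Csf2rb, 0.922 for Itgb2 and 0.841 for Cd3g. The remaining result was Cd209a, where control 4 lay low at 3 recovered reads and the gap was 0.886 of the range. In control 2 the summed T cell markers were at 1718 normalized counts against 138 to 208 in the other controls, and the summed macrophage markers at 23506 against 17194 to 21840.2. What set this library apart was not tested.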

How the results depend on the processing

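Of the 10 members, 6 were called with all 7 libraries, and 3 to 6 when 1 library was left out. Over all genes the calls ranged from 986 (without ICI-myocarditis 3) to 3340 (without control 2) when 1 library was left out. Part of the drop among members came from the filter, since Ccl17 was not tested when an ICI-myocarditis library was left out. edgeR called 4 members and 2076 genes, and DESeq2 6 members and 3441 genes. Some signs turned in genes that were not called. With 1 library left out, the Cd209a log2 fold change ranged from -0.24 (without control 4) to 0.43, and was -0.24 under the replicate block. That of Fscn1 ranged from -0.50 to 0.089 (without ICI-myocarditis 1). The log2 ratio Batf3 to Ptprc was -0.081 with a pseudocount of 5 and ranged from -0.012 (without ICI-myocarditis 1) to 0.47. The log2 ratio Ccl17 to Ptprc ranged from -0.80 to 0.18 (without control 1). The cause was not tested. A replicate block over libraries 1 to 3 gave 1764 calls and the same number of members, 6. Same-numbered libraries did not deviate together (correlations -0.27, -0.21 and -0.08). Whether the numbers pair them cannot be told from so few libraries, and the labels do not say. Siglech, Cd209a and Ccl17, at 1 to 53 reads per library, are limited by depth.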
